A study of Mus musculus with 8 samples.

Results

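The genes described here encode 9 proteins of the glutathione and thioredoxin antioxidant systems, chosen by symbol as Gclc, Gclm, Gsr, Txnrd1, Srxn1, Prdx1, Cat, G6pdx and Keap1. All probe sets that carried 1 of these symbols and no other were used, which gave 16 probe sets of 18443 on the array and 7 genes of 10401. The 5 probe sets of Prdx1 also carried the symbol Gm21399 and were left out, and G6pdx was not analysed here. RNA levels were read in enterocytes, which line the small intestine and absorb nutrients, isolated from IE-Cpr-null mice and from their wild-type (WT) littermates. All mice were male C57BL/6 mice aged 2.5 to 3.0 months on a standard diet, and the labels name no agent given to either genotype. In IE-Cpr-null mice the intestinal epithelium is without Cpr, the NADPH-cytochrome P450 reductase that supplies microsomal P450 enzymes with electrons. The labels name neither the Cre driver nor the alleles. There were 4 arrays of each genotype, which used 8 mice, since the RNA of 2 mice was combined for every array. Errors and p-values therefore measure the spread between such pools.

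Glutathione is the main small thiol of the cell. Glutamate-cysteine ligase, built from a catalytic subunit (Gclc) and a modifier subunit (Gclm), makes its precursor, and glutathione reductase (Gsr) returns its oxidised form to the reduced one with NADPH. In the parallel system, thioredoxin reductase 1 (Txnrd1) keeps thioredoxin reduced, thioredoxin keeps peroxiredoxins such as Prdx1 reduced, and sulfiredoxin 1 (Srxn1) repairs peroxiredoxins that hydrogen peroxide has over-oxidised. Catalase (Cat) breaks down hydrogen peroxide in peroxisomes without NADPH. Keap1 holds the transcription factor Nrf2 at a low level. When Keap1 is inactivated by electrophiles or oxidants, Nrf2 pairs with small Maf proteins and binds antioxidant response elements near genes such as Gclc, Gclm, Txnrd1, Srxn1 and Nqo1.

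The promoter letters are shown because that element is what most of these genes are known to share. Promoters of 300 bases, 250 before and 50 after each gene start, came from RefSeq (GRCm38.p6) and were matched by symbol for 7 of the 9 genes, all but Gclc and Gsr. They were searched on both strands for TGACNNNGC, the core of the antioxidant response element, with N for any base, and no other motif was searched. A match was found in 5 of these 7 genes, namely Gclm, Txnrd1, Srxn1, Prdx1 and G6pdx, and none in the windows of Cat and Keap1. Counted by promoter, 5 of the 9 promoters of these genes held a match, against 12.4% of all 32851 promoters in the table. Txnrd1 had 3 promoters in the table, 1 of them with a match. The matches of the 3 measured genes, in capitals with 10 bases on each side, all read on the strand opposite to the gene, so the element appears below as its reverse complement.
Gclm (chr3:122245413-122245441, plus strand, from 134 bases before the gene start): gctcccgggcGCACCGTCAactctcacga
Txnrd1 (chr10:82859104-82859132, plus strand, from 92 bases before the gene start): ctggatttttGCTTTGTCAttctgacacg
Srxn1 (chr2:152105542-152105570, plus strand, from base +29 of the transcript): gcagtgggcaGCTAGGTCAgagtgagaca
A match describes the letters of a window and says nothing on whether a factor binds there.

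Each probe set's log2 values had been centred on its median over the 4 WT arrays, so the level of a gene is unknown and every value below is relative to that median. Differences are IE-Cpr-null minus WT on the log2 scale, with n = 4 arrays in each genotype. The number of arrays limited the precision. Depth has no counterpart on these arrays, and signal over background is unknown. The labelled cell type was checked on 10 measured enterocyte markers, whose mean per array ran from -0.11 to 0.00020 in IE-Cpr-null and from -0.10 to 0.044 in WT. Since values are centred, this shows even levels and not that the markers were high. The arrays were uneven in RNA of other tissues. Smooth muscle and stroma markers (9 measured) had their highest means on IE-Cpr-null replicate 1 (5.33) and WT replicate 2 (2.26), against -0.57 to 0.24 on the other 6 arrays. Hepatocyte markers (9 measured) averaged 6.07 and 3.73 on IE-Cpr-null replicates 2 and 3, against -0.18 to 0.25 elsewhere. Pancreatic acinar markers (7 measured) ran from -4.91 to -1.79 in IE-Cpr-null, against -0.58, 1.47, -4.69 and 0.51 on WT replicates 1 to 4. WT replicates 1, 2 and 4 thus lay above every IE-Cpr-null array. Paneth markers (3 measured) averaged 1.75 on IE-Cpr-null replicate 1, and B and plasma cell markers (4 measured) 0.97 on IE-Cpr-null replicate 3. Differences were negative for all 6 enteroendocrine, all 6 macrophage and dendritic cell, all 7 acinar and 4 of 5 goblet markers. They were also negative for all 3 Paneth and 7 of 10 enterocyte markers. They were positive for all 7 T cell, all 9 hepatocyte and all 3 red cell markers. The same held for 7 of 9 smooth muscle and stroma and 3 of 4 B and plasma cell markers. In these lists 0 markers were called by limma. An unadjusted p under 0.05 was held by 3 enteroendocrine, 1 macrophage and dendritic cell, 3 acinar and 2 goblet markers. No marker of the other lists held one, and 8.69% of all genes did. In pooled bulk RNA, fewer cells of a type and less RNA per cell cannot be told apart. The deleted gene's own transcript, which would test the genotype labels, is not analysed here.

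No antioxidant gene passed the test between the genotypes. Of the 16 probe sets, 8 were on the higher and 8 on the lower side in IE-Cpr-null enterocytes, and 0 passed an adjusted p of 0.05 in limma, where 0.0217% of all probe sets did (0.0163% on the higher side and 0.00542% on the lower). At an unadjusted p under 0.05 the count was also 0 of 16, against 7.4% of all probe sets. The genotypes overlapped in each of the 16 probe sets, while they did not in 4.11% of all probe sets. The smallest unadjusted p was 0.16, for a Srxn1 probe set, and the adjusted p ran from 0.849 to 0.954. Averaged to genes, 2 of the 7 differences were positive (Gsr and Srxn1) and 5 negative, with a median of -0.025 against 0.016 over all 10401 genes, of which 57.6% were higher. Without the muscle-rich arrays 4 were positive and 3 negative, with a median of 0.035 against 0.014 over all genes. Over all genes 0.0288% passed in limma, 8.69% had an unadjusted p under 0.05 and 4.85% had genotypes that did not overlap, against 0 of 7 in each count here.

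**Figure D1:**
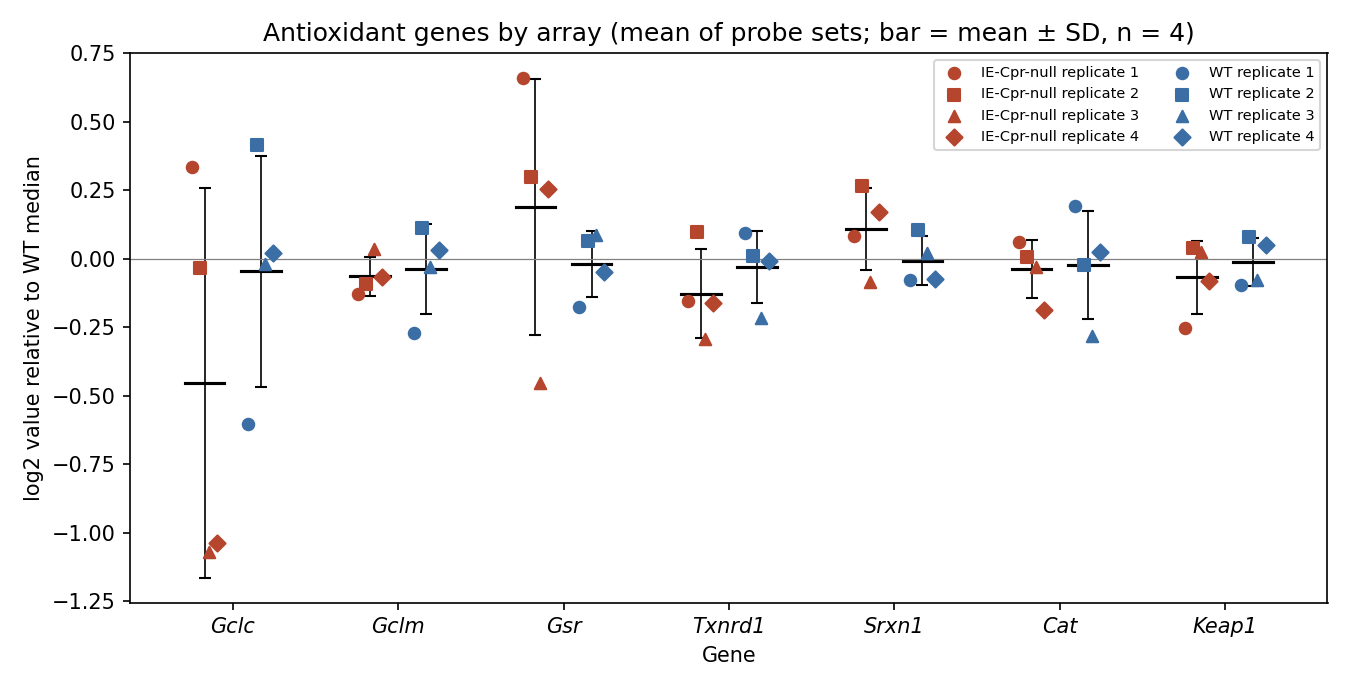
Log2 value relative to the WT median (vertical axis) of each antioxidant gene (horizontal axis) on the 4 IE-Cpr-null and 4 WT arrays. Symbols mark replicates and bars the mean ± SD, n = 4. The genotypes overlap in each of the 7 genes, and the widest spreads are those of Gclc and Gsr in IE-Cpr-null.

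Gclc, the catalytic subunit that sets the rate of glutathione synthesis, had the largest difference and the widest spread. Its 2 probe sets averaged 0.33, -0.034, -1.07 and -1.04 on IE-Cpr-null replicates 1 to 4, against -0.60, 0.42, -0.019 and 0.019 on WT replicates 1 to 4. IE-Cpr-null replicates 3 and 4 lay below every WT array, whereas replicates 1 and 2 lay within the WT range. The difference was -0.41 (SE 0.37, limma adjusted p = 0.836), a ratio of 0.755 with a 95% interval from 0.417 to 1.37. An exact permutation test of the 2 groups, two-sided over the 70 assignments of arrays, gave p = 0.257, where the smallest possible p is 0.0286. The probe sets 1424296_at and 1455959_s_at, the second with an ID that marks probes shared with other transcripts, gave -0.38 (SE 0.39) and -0.43 (SE 0.35). They differed from each other by at most 0.33 on any array, less than the range of 1.40 among the IE-Cpr-null arrays.

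Gclm, the modifier subunit that makes the catalytic subunit more efficient, had a narrower spread. Its single probe set, 1418627_at, stood at -0.13, -0.094, 0.034 and -0.065 on the IE-Cpr-null arrays, against -0.27, 0.11, -0.030 and 0.030 on the WT arrays. All 4 IE-Cpr-null arrays fell inside the WT range. The difference was -0.025 (SE 0.084, limma adjusted p = 0.906, 95% interval of the ratio 0.859 to 1.13), and it turned positive without WT replicate 2 (0.026). The exact permutation p was 0.8. The SD of Gclm was 0.071 among IE-Cpr-null arrays and 0.16 among WT arrays, the second of these wider than that of 79.8% of all genes. The SD of Gclc was 0.71 among IE-Cpr-null arrays and 0.42 among WT arrays.

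Gsr, which regenerates reduced glutathione, was higher than every WT array on 3 of the 4 IE-Cpr-null arrays. Its 2 probe sets averaged 0.66, 0.30, -0.45 and 0.25 on IE-Cpr-null replicates 1 to 4, against -0.18, 0.063, 0.087 and -0.049 on the WT arrays. Replicate 3 lay below every WT array. The difference was 0.21 (SE 0.22, limma adjusted p = 0.836, 95% interval of the ratio 0.815 to 1.64), with an exact permutation p of 0.457. The size of this difference depended on single arrays. Without IE-Cpr-null replicate 3 the difference was 0.42, with an unadjusted p of 0.00961 and an adjusted p of 0.304 in limma, and an exact permutation p of 0.0286, the smallest those 7 arrays can give. That was the 1 permutation p under 0.05 among 56 computed over the 7 genes with 1 array left out, and none of them is adjusted. Without replicate 1, the highest, it was 0.050 (limma adjusted p = 0.964). Replicate 1, with the highest Gsr (0.66), was the array with the highest muscle mean (5.33), and without the 2 muscle-rich arrays the difference was 0.077 (limma adjusted p = 0.916). Replicate 3 was 1 of the 2 arrays rich in hepatocyte transcripts, and without both of those the difference was 0.47 (limma adjusted p = 0.477). The part of either tissue in the Gsr values was not tested. The probe sets 1421816_at and 1421817_at gave 0.18 (SE 0.22) and 0.23 (SE 0.22), and differed by at most 0.12 on any array.

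The thioredoxin side held the smallest unadjusted p but no call. Srxn1, the peroxiredoxin repair enzyme, averaged 0.083, 0.27, -0.086 and 0.17 over its 4 probe sets on IE-Cpr-null replicates 1 to 4, against -0.080, 0.11, 0.020 and -0.075 on the WT arrays. Replicates 2 and 4 lay above every WT array. Replicate 3 (-0.086) lay just below the lowest WT array (-0.080), and among single probe sets it did so in 1426875_s_at only. Replicate 3 had the highest B and plasma cell mean (0.97) and a hepatocyte mean of 3.73. Replicate 2, with the highest Srxn1 (0.27), had the highest hepatocyte mean (6.07). The part of those cells was not tested. The difference was 0.12 (SE 0.082, limma adjusted p = 0.804, exact permutation p = 0.286), and its 95% interval as a ratio ran from 0.95 to 1.24. All 4 probe sets had a positive difference, from 0.080 to 0.17. They are 4 readings of 1 transcript on the same arrays and not independent. The ID of 1426875_s_at marks probes shared with other transcripts, and without it the gene difference was 0.13 (SE 0.083).

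Txnrd1, the selenoprotein that reduces thioredoxin, stood at -0.16, 0.098, -0.29 and -0.16 on the IE-Cpr-null arrays, against 0.095, 0.0091, -0.22 and -0.0091 on the WT arrays, as the mean of 3 probe sets. The genotypes overlapped, with 1 IE-Cpr-null array above and 1 below the whole WT range. The difference was -0.097 (SE 0.097, limma adjusted p = 0.836, 95% interval of the ratio 0.799 to 1.09, exact permutation p = 0.429). Its probe sets gave -0.18, -0.10 and -0.012. The last, 1424487_x_at, is 1 whose ID marks probes shared with other transcripts, and its sign turned with array weights (0.0067), without the hepatocyte-rich arrays (0.0047) and in 3 of the settings that left out 1 array. WT replicate 3 and IE-Cpr-null replicate 3 were the lowest arrays of their genotypes for this gene.

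**Figure D2:**
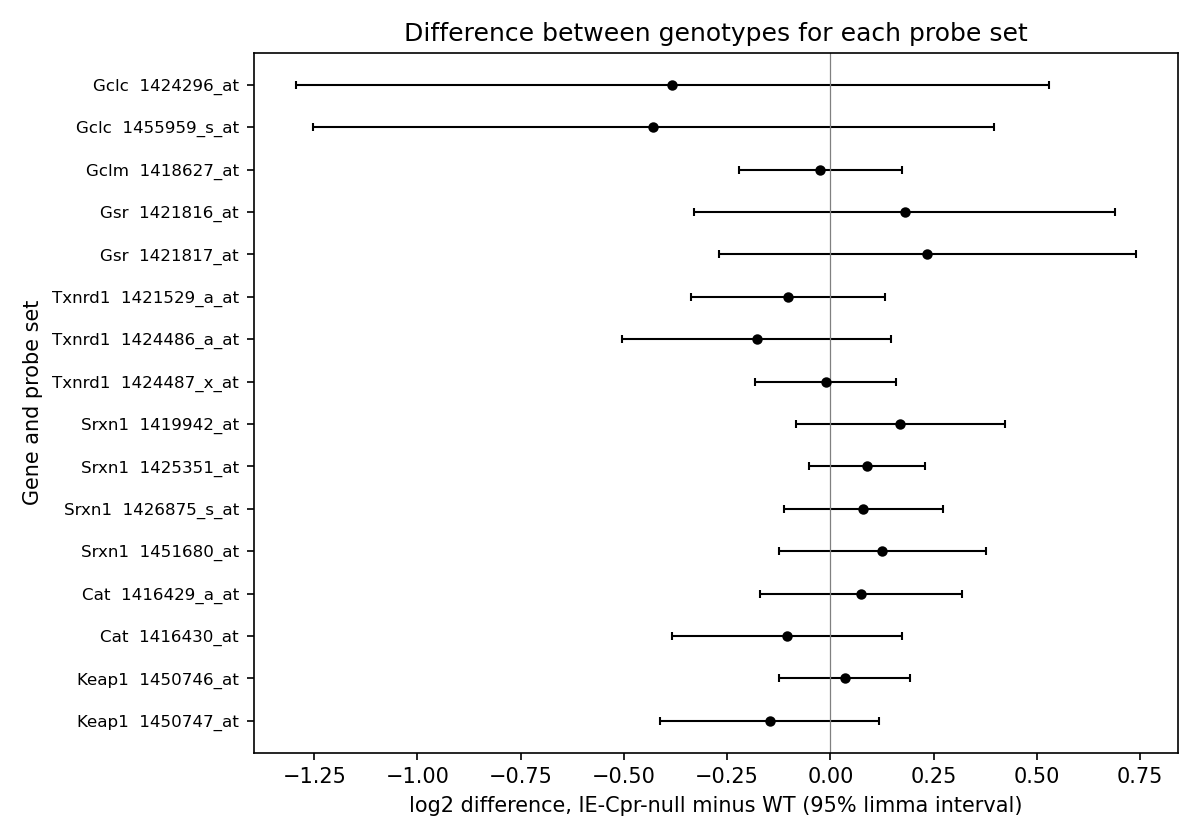
Log2 difference, IE-Cpr-null minus WT, of each of the 16 probe sets (points) with its 95% limma interval (bars). Each interval crosses 0, and those of Gclc are the widest, from -1.30 to 0.53 for 1424296_at.

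Cat, the peroxisomal catalase, was the gene with the smallest difference. It stood at 0.061, 0.0045, -0.029 and -0.19 on the IE-Cpr-null arrays, against 0.19, -0.024, -0.28 and 0.024 on the WT arrays, and the IE-Cpr-null arrays lay inside the WT range. The difference was -0.015 (SE 0.10, limma adjusted p = 0.954, exact permutation p = 0.886), with a 95% interval of the ratio from 0.838 to 1.17. Its sign was not stable, since it turned positive in 4 of 17 alternatives. These were quantile normalization (0.0086) and leaving out WT replicate 1 (0.056), WT replicate 4 (0.0004) or IE-Cpr-null replicate 4 (0.035). The 2 probe sets also took opposite signs, 0.075 for 1416429_a_at and -0.11 for 1416430_at.

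Keap1, the sensor that restrains Nrf2, stood at -0.25, 0.037, 0.024 and -0.082 on the IE-Cpr-null arrays, against -0.096, 0.078, -0.078 and 0.049 on the WT arrays. Only replicate 1 lay outside the WT range, below it. The difference was -0.056 (SE 0.076, limma adjusted p = 0.836, 95% interval of the ratio 0.851 to 1.09, exact permutation p = 0.457), and it was 0.0049 without that array. It was 0.035 without the muscle-rich arrays and -0.16 without the hepatocyte-rich ones (limma adjusted p = 0.714). The value of replicate 1 came from 1 of the 2 probe sets, 1450747_at at -0.48, while 1450746_at was -0.020 on the same array. This gap of 0.47 was the widest between probe sets of 1 gene on 1 array among the 7 genes.

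The 7 intervals differed in what they allow. Those of Gclm, Txnrd1, Srxn1, Cat and Keap1 lay between ratios of 0.799 and 1.24, whereas those of Gclc and Gsr reached from 0.417 to 1.37 and from 0.815 to 1.64. The width followed the spread between pools. The SD of Gclc was 0.71 in IE-Cpr-null and 0.42 in WT, wider than that of 97.3% and 96.8% of all genes in the same genotype. The SD of Gsr was 0.47 in IE-Cpr-null, above 94.4% of genes, and 0.12 in WT, above 68.0%. In 5 of the 7 genes the SD was larger among the IE-Cpr-null arrays, as it was in 57.5% of all genes, and Gclm and Cat were the other two.

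In each genotype the highest Gclc value fell on the array with the highest smooth muscle and stroma mean. The lowest IE-Cpr-null value also fell on an array rich in RNA of another tissue, the liver. The arrays with the highest Gclc of their genotype, IE-Cpr-null replicate 1 (0.33) and WT replicate 2 (0.42), were the arrays with the highest smooth muscle and stroma means (5.33 and 2.26) and the highest acinar means (-1.79 and 1.47). The pattern was not complete, since IE-Cpr-null replicate 2 had an acinar mean of -4.78 and a Gclc value of -0.034, while replicate 4 had an acinar mean of -4.74 and a Gclc value of -1.04. WT replicate 1 had a muscle mean of 0.24, above those of WT replicates 3 and 4, but the lowest WT Gclc (-0.60). WT replicate 3 had the lowest WT acinar mean (-4.69) and a Gclc value of -0.019. The hepatocyte-rich arrays lay apart in Gclc. IE-Cpr-null replicate 3, with a hepatocyte mean of 3.73, had the lowest Gclc (-1.07). Replicate 2, with a hepatocyte mean of 6.07, stood at -0.034. Without the 2 muscle-rich arrays the Gclc difference was -0.51 (limma adjusted p = 0.678). Without the hepatocyte-rich arrays it was -0.31 (limma adjusted p = 0.761). The part of the other tissues in the Gclc values was not tested.

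**Figure D3:**
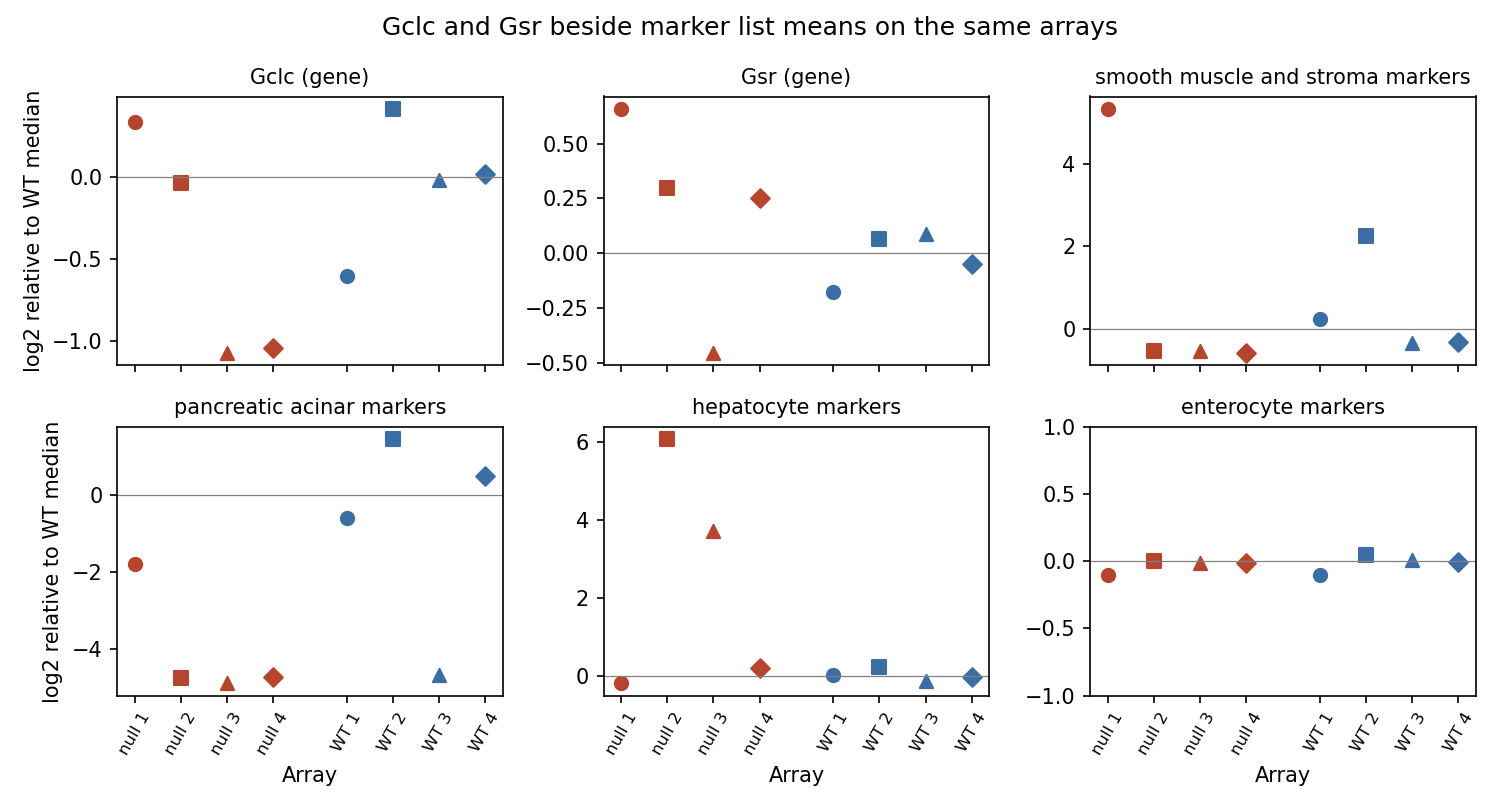
Log2 values relative to the WT median on each array (null, IE-Cpr-null) of Gclc and Gsr and of the means of 4 marker lists; vertical scales differ between panels. Gclc is highest on IE-Cpr-null replicate 1 and WT replicate 2, which also have the highest muscle means, 5.33 and 2.26.

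The rest of the pathway was read on 8 lists with 99 measured genes of 121 listed, none of them among the 9 above. In limma 0 of the 99 passed over all genes, and 17 had an unadjusted p under 0.05, beside the 8.69% of all genes given above. There were 44 positive and 55 negative differences, with a median of -0.048. The smallest adjusted p was 0.144, for Slc25a17, a transporter of the peroxisomal membrane. It stood at -0.42, -0.77, -0.44 and -0.59 on the IE-Cpr-null arrays, against 0.029, -0.17, 0.062 and -0.028 on the WT arrays, so the genotypes did not overlap. Its difference of -0.53 (SE 0.089) was larger than that of any of the 7 genes. Slc25a17 was the 1 gene without overlap among 11 measured neighbours of catalase in the peroxisome, beside 4.85% of all genes. Of these 11 genes, 5 were higher and 6 lower (median -0.0091, but 0.0076 without the muscle-rich arrays). Uox, the urate oxidase, had the next smallest p in the list of catalase's peroxisomal neighbours (0.84, SE 0.63), with 2.96 on IE-Cpr-null replicate 2, the array richest in hepatocyte transcripts, and at most 0.34 on the other 7.

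**Figure D4:**
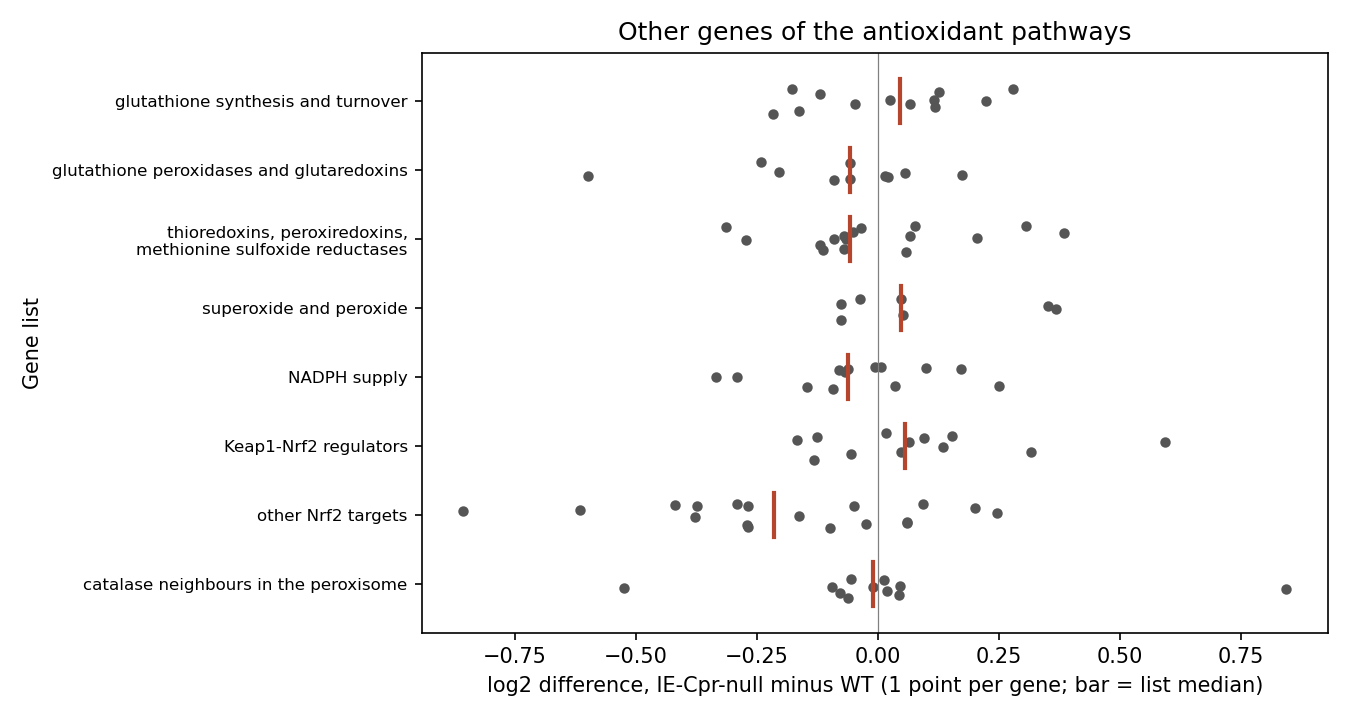
Log2 difference, IE-Cpr-null minus WT, of each gene (points) in 8 pathway lists, with the list median (bar). List medians lie between -0.21 for other Nrf2 targets and 0.056 for Keap1-Nrf2 regulators.

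Among genes that make or recycle glutathione, 12 were measured, 7 on the higher side and 5 on the lower (median 0.047, but -0.012 without the muscle-rich arrays). Oplah, the 5-oxoprolinase of glutathione turnover, differed by 0.22 (SE 0.10) and Cth, the cystathionine gamma-lyase that supplies cysteine, by -0.18 (SE 0.081), both with overlap. Of 10 glutathione peroxidases, glutaredoxins and glyoxalase genes, 4 were higher and 6 lower (median -0.057, but 0.017 with array weights). Glrx2, a glutaredoxin with a mitochondrial form, stood between 0.099 and 0.22 on the IE-Cpr-null arrays, against -0.021 to 0.0090 on the WT arrays (difference 0.17, SE 0.036, limma adjusted p = 0.217). Glo1, the glyoxalase that uses glutathione to detoxify methylglyoxal, stood between -0.31 and -0.18 in IE-Cpr-null, against -0.10 to 0.077 in WT (difference -0.24, SE 0.053, limma adjusted p = 0.252). The genotypes did not overlap in either gene, 2 of the 10 in all, beside 4.85% of all genes, yet neither passed.

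Of 16 thioredoxin, peroxiredoxin and methionine sulfoxide reductase genes, 6 were higher and 10 lower (median -0.058). Sesn1, a sestrin induced by p53, was at -0.36 to -0.11 on the IE-Cpr-null arrays, against -0.082 to 0.077 on the WT arrays (difference -0.27, SE 0.067, limma adjusted p = 0.277). Txnip, the thioredoxin-interacting protein that binds reduced thioredoxin, was at 0.13 to 0.35 in IE-Cpr-null, against -0.18 to 0.10 in WT (difference 0.31, SE 0.076, limma adjusted p = 0.277). The genotypes did not overlap in these genes nor in 2 more, 4 of the 16 in all, beside 4.85% of all genes.

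NADPH feeds both systems and is also the electron donor of Cpr. Of 13 genes of NADPH supply, 5 were higher and 8 lower (median -0.061). Idh1, the cytosolic isocitrate dehydrogenase that makes NADPH, was at -0.40 to -0.19 on the IE-Cpr-null arrays, against -0.12 to 0.079 on the WT arrays (difference -0.29, SE 0.065, limma adjusted p = 0.256). Nnt, the mitochondrial transhydrogenase that makes NADPH from NADH, was at -0.48 to -0.15, against -0.12 to 0.099 (difference -0.34, SE 0.082, limma adjusted p = 0.277). The genotypes did not overlap in Idh1 and Nnt, 2 of the 13 in all, beside 4.85% of all genes. Among 7 genes of superoxide and peroxide handling, 4 were higher and 3 lower (median 0.047, but -0.041 without the hepatocyte-rich arrays), with Cyba, a subunit of NADPH oxidases, at 0.37 (SE 0.17) and Sod2, the mitochondrial superoxide dismutase, at -0.077 (SE 0.036), both with overlap.

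Of 12 regulators around Keap1 and Nrf2, 8 were higher and 4 lower (median 0.056). Nfe2l1, a relative of Nrf2, differed by 0.15 (SE 0.058, limma adjusted p = 0.509) with no overlap, and Mafk, a small Maf partner, by 0.14 (SE 0.055, limma adjusted p = 0.541) with overlap. Nfe2l1 was the 1 gene of the 12 without overlap, beside 4.85% of all genes. Nfe2l2, the gene of Nrf2 itself, was chosen after its value was seen and differed by 0.017 (SE 0.11).

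The 18 other measured Nrf2 targets had the lowest list median, -0.21, with 5 higher and 13 lower, and 0 passed in limma. The median was -0.19 with quantile normalization and -0.23 with median centring, and -0.068 without the muscle-rich arrays, where NADPH supply was lower (-0.084). Ugdh, which makes UDP-glucuronic acid, differed by -0.27 (SE 0.085, limma adjusted p = 0.41), and Fth1, the ferritin heavy chain, by -0.16 (SE 0.052, limma adjusted p = 0.416) with no overlap. The genotypes did not overlap in 2 of the 18 targets, Fth1 and Abcc2, beside 4.85% of all genes. This list was set apart by its WT arrays. In 17 of the 18 genes WT replicate 2 was the highest WT array, against 1979 of all 10401 genes. The same count of 17 held with quantile normalization (3325 of all genes) and with median centring (2075 of all genes). Among the 7 antioxidant genes it was the highest WT array in 4, Gclc, Gclm, Srxn1 and Keap1. The mean of the 18 targets per array was between -0.40 and 0.071 in IE-Cpr-null, against 0.62 on WT replicate 2 and -0.35 to 0.14 on the other WT arrays. WT replicate 2 was also the WT array with the highest muscle (2.26) and acinar (1.47) means, and their part in these values was not tested.

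Nqo1 and Cbr3 had the same lowest and highest arrays as Gclc. They were chosen after their values were seen, so this likeness came with the choice. Nqo1, the quinone reductase used as a readout of Nrf2, was 0.13, -0.022, -0.69 and -0.60 on IE-Cpr-null replicates 1 to 4, against -0.31, 0.80, -0.26 and 0.26 on the WT arrays (difference -0.42, SE 0.30, limma adjusted p = 0.807). Cbr3, a carbonyl reductase, was 1.32, 2.29, -1.48 and -1.52 on the IE-Cpr-null arrays, against -0.66, 2.35, -0.45 and 0.44 on the WT arrays (difference -0.27, SE 1.06, limma adjusted p = 0.918). In both, as in Gclc, IE-Cpr-null replicates 3 and 4 were the lowest of the 8 arrays and WT replicate 2 was the highest. In Cbr3, however, WT replicate 2 (2.35) was only just above IE-Cpr-null replicate 2 (2.29). Among the rest of the 18 targets only Ugdh had the same lowest and highest arrays. Ranked within IE-Cpr-null alone, a looser rule, replicates 3 and 4 were the 2 lowest arrays in 8 of the 18 targets, against 33.6% of all genes.

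By mean absolute gap per array over the 8 arrays, the 3 genes of 10400 closest to Gclc were Spib (0.24), which encodes an Ets family transcription factor, Folr1 (0.24), a folate receptor gene, and Smpx (0.25), a small muscle protein gene. Spib was 0.66, -0.23, -0.53 and -0.43 on the IE-Cpr-null arrays, against -0.48, 0.28, -0.010 and 0.010 on the WT arrays. A gap of this size, beside a Gclc range of 1.40 in IE-Cpr-null, describes likeness on these 8 arrays only.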

How the data were processed

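The deposited table gave log2 values per probe set for 8 single-colour arrays of biotin-labelled RNA. Summarisation by the authors was with GCRMA, per the submitters' processing notes (version not given in the sources used here), and the values show a further centring on the WT median of each probe set. Titles gave the genotype and number of each array. Probe sets were named from the platform annotation, with 16689 carrying 1 symbol, 616 several and 1138 none. Differences were tested with limma 3.58.1 in R 4.3.3 (lmFit, eBayes with a constant prior, two-sided, no block, threshold 0.05), Benjamini-Hochberg adjusted over all 18443 probe sets or all 10401 genes (mean of a gene's probe sets). Since levels are unknown, no dim probe set was left out. Exact permutation tests took 1 gene each, 7 on all arrays and 56 with 1 array left out, and their p-values are unadjusted. The scripts were tested on simulated data.

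The members and lists were chosen with earlier results of these data known. Named by rule were all members, the 2 genes of each list with the smallest p, and the 3 genes closest to Gclc. Outside that rule, Nfe2l2, Nqo1 and Cbr3 were named after their values were seen. Abcc2 was named as 1 of the 2 other Nrf2 targets without overlap. Alternatives were quantile normalization, median centring, array weights, the replicate block, a robust prior, dropping probe sets with shared probes (2694), the median of probe sets, restriction to probe sets with the larger SDs (9221), and each array left out. Leaving out the muscle-rich or hepatocyte-rich arrays was chosen after seeing the data. The labels give no batch or scan.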

Additional observations from a re-analysis of the deposited data

Results flagged for a closer look

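Of 46 groups of 4 arrays examined (16 probe sets and 7 genes in both genotypes), 1 held an array that stood apart from the other three by Dixon's criterion. It was WT replicate 4 in the Srxn1 probe set 1419942_at, at -0.25, with a gap over range of 0.868. Chance alone flags about 1 group in 20. The other Srxn1 probe sets on that array stood at 0.010, -0.053 and -0.0065.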

How the results depend on the processing

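Across 17 alternatives each for probe sets and genes, 0 member was called, and the lowest adjusted p was 0.0687, for Gclc with array weights (-0.94, unadjusted p = 0.00632), which gave IE-Cpr-null replicate 4 a weight of 6.57 and replicate 1 one of 0.32. Of all 18443 probe sets, 4 were called, against 741 with array weights, 1 with quantile normalization, 7 among the 9221 most variable probe sets, and 1 to 16 with 1 array left out. Of all genes, 3 were called, against 586 (5.63%) with array weights, 0 with quantile normalization (436 at an unadjusted p under 0.05), 6 when the muscle-rich arrays were left out, 5 when the hepatocyte-rich ones were, and 2 to 38 with 1 array left out (38 without IE-Cpr-null replicate 1). Array weights also called 13 of the 99 pathway genes, 4 higher and 9 lower. The causes were not tested. The replicate block left 1 probe set and 1 gene called and 0 members; IE-Cpr-null replicate 1 correlated best with WT replicate 2 (0.34), and deviations of same-numbered arrays correlated at -0.058, -0.041, 0.26 and 0.13, so the numbers were not taken to pair the arrays.

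Gclc, Gsr, Txnrd1 and Srxn1 kept their sign as genes in all 17. With 1 array left out they ran from -0.67 to -0.20, 0.050 to 0.42, -0.17 to -0.042 and 0.063 to 0.18, Gclm from -0.10 to 0.026, Cat from -0.10 to 0.056 and Keap1 from -0.092 to 0.0049. The sign turned for Cat with quantile normalization (0.0086), and for Gclm (0.048) and Keap1 (0.035) without the muscle-rich arrays. Among probe sets it turned with array weights for 1424487_x_at (0.0067), 1416429_a_at (-0.098) and 1450746_at (-0.057), and without the hepatocyte-rich arrays for 1424487_x_at (0.0047) and 1450746_at (-0.037). With 1 array left out, 1424487_x_at ran from -0.052 to 0.040 and 1450746_at from -0.017 to 0.068. Signal over background is unknown, so a probe set too dim to show a difference cannot be told from an unaltered one.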
